A study of Mus musculus with 6 samples.

Results

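Solute carriers are membrane proteins that move ions, amino acids, sugars, metals, nucleotides and other small molecules across the plasma membrane and the membranes of organelles, driven by gradients rather than by ATP hydrolysis. In brain they clear transmitters, load vesicles, set chloride, calcium and pH in neurons and glia, and carry fuel from blood to cells. Some of their genes also give rise to circular RNAs (circRNAs), closed rings made when a splice joins a later exon backwards to the start of an earlier one. The circRNAs described here are those whose host gene name starts with Slc and a number, apart from the hosts Slc8a1, Slc44a1, Slc1a2, Slc1a3 and Slc4a4. They numbered 158 of the 18136 circRNAs in the table and came from 75 of its 5414 named host genes. One of the 75, Slc4a1ap, meets the name rule but encodes an adaptor-associated protein, kanadaptin, and not a carrier.

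The libraries were made from mouse brain total RNA enriched for circRNA, 3 from wild-type mice (WT) and 3 from mice labelled A53T, a transgenic model of Parkinson disease that carries the A53T form of alpha-synuclein. Brain is the tissue in the sample labels, midbrain substantia nigra in the series text. Not given in the sources used here were the promoter of the transgene, the age of the mice and whether each sample was a separate animal. A p-value therefore reflects the spread among these 6 libraries, part of which may be technical. Each library held 25217 to 36390 reads that cross a back-splice junction, the counted unit here, so 1 read stood for 27.5 to 39.7 RPM, the reads scaled to a common library total. Junction counts do not depend on the length of a circle, and linear RNA of the hosts was not measured. Of the neuronal markers 7 of 7 had a listed circRNA, summed to 21057 to 23083 RPM in the WT libraries and 18821 to 21650 in the A53T libraries. Of 6 dopaminergic markers 1 did (Kcnj6), at 544 to 742 RPM in the WT libraries and 737 to 1522 in the A53T libraries; Th, Ddc, Nr4a2, Slc6a3 and Slc18a2 had none listed. The WT and A53T ranges of Kcnj6 overlapped, and whether its level bears on the results below was not tested. Of 6 astrocyte markers 3 did, all of them among the hosts left out by the rule (Slc1a2, Slc1a3 and Slc4a4), at 357 to 397 RPM in WT and 302 to 497 in A53T. Oligodendrocyte, endothelial and choroid plexus markers had 2, 6 and 2 reads in all, and microglial markers none. In bulk tissue fewer cells of a type and less circRNA per cell cannot be told apart.

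A few circles show how these hosts are cut. Capitals in the sequences below mark the start of the first exon of the circle, and the lower-case letters before them the end of its last exon, 20 bases on each side, both wholly coding. They are read 5′ to 3′ from the GENCODE M21 transcript that the table names, and coordinates are those of the table (mm39, 1-based). Each is the most read wholly coding circle of a host tested below.
Slc24a2 exons 2 to 3, chr4:86991425-86994394, minus strand: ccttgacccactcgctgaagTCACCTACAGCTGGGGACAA
Slc24a3 exons 3 to 5, chr2:145354674-145360867, plus strand: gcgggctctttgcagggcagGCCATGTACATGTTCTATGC
Slc9a9 exons 2 to 4, chr9:94567108-94595024, plus strand: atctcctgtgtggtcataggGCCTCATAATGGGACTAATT
Slc33a1 exons 2 to 5, chr3:63851987-63861425, minus strand: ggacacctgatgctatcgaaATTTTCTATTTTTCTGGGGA
Slc35f5 exons 5 to 10, chr1:125496284-125507064, plus strand: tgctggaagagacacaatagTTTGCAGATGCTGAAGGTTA
Slc16a14 exon 4, chr1:84889917-84890894, minus strand: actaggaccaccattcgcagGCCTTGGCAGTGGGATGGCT

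The Slc24a2 circle is short enough to print whole, 148 bases of coding sequence from exons 2 and 3 of 10, starting at exon 2: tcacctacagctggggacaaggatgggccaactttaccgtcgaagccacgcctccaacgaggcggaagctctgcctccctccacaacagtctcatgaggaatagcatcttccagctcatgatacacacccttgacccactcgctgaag

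Most of the 158 circRNAs were made of exons and read rarely. Exonic circRNAs made up 113 of them (71.5%, against 72.4% of all 18136), and held 814 of their 963 junction reads. There were also 29 sense overlapping, 14 intronic and 2 antisense ones, in Slc12a5, the neuronal potassium-chloride cotransporter KCC2, and in Slc35f3. The strand setting of the counting is unknown, and reads of these 2 cannot be told from sense reads with certainty. A circle had a median of 3 reads over all 6 libraries, as in the whole table. Of the 158, 84 (53.2%) were read in 1 library, against 50.7% of all circRNAs, and 6 (3.80%) were read in all 6 libraries, against 8.80%. No test was made of these shares.

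All 113 exonic circles matched 1 run of exons of their transcript by span and predicted length. The median predicted length was 571 nt (interquartile range 358 to 921 nt) and the median number of exons 4, beside 582 nt and 4 exons over all exonic circRNAs. Junction reads show the ends of a circle, and its inner exons are predicted. The first exon was exon 2 in 45 (39.8%), beside 27.7% of all matched circRNAs, and was exon 1 in 0; 0 ended in the last exon. The annotated start codon lay inside 21 of the 113 (18.6%, against 13.3% of all matched circRNAs on coding transcripts), and 89 were wholly coding. Of those 89, 34.8% had a length that is a multiple of 3, against 40.3% over all wholly coding circles. Circles of 1 host often shared a splice site: among the 25 hosts with more than 1 exonic circle, 66 of 80 circles (82.5%) had an end in common with another, beside 73.5% in the whole table, 47 at the first exon and 30 at the last.

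Reads were concentrated in few hosts. Of the 75 hosts, 42 (56.0%) had 1 listed circle, against 42.4% of all hosts, and the largest number was 9, in Slc9a7 and Slc4a10. The 10 most read hosts took 49.5% of the 963 reads, and 34 hosts had 5 reads or fewer. The like values over all hosts are not reported here, so this is not read as particular to solute carriers. The solute carrier hosts took 0.511 ± 0.049% of all junction reads in WT and 0.506 ± 0.021% in A53T (SD, n = 3 each). The lowest share was 0.466% in WT replicate 1 (95% Wilson interval 0.398 to 0.545%) and the highest 0.563% in WT replicate 3 (0.478 to 0.663%), so the A53T libraries lay inside the WT range. These intervals cover counting error only. The 5 hosts left out by the rule had 937 reads on 39 circles, close to the 963 of the other 75 together.

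Whether solute carrier circles differ between A53T and WT brain was asked on single circles and on sums over a host. Among the 12 hosts with enough reads to test, the sodium-calcium exchanger Slc8a3 and the bicarbonate transporter Slc4a10 had the highest ratios of A53T to WT, Slc35f5 and the phosphate carrier Slc20a2 the lowest. Slc4a10 was kept through its A53T libraries alone, which favours a high ratio, so nothing is read from its rank. Slc35f5 and Slc20a2 were kept through more WT than A53T libraries, which leans towards a low ratio. None of the 12 passed the test across all genes. A circle or host was tested where 3 or more of the 6 libraries had 5 reads or more of it. This kept 12 of the 75 hosts, with 529 reads (54.9%), and 5 of the 158 circles. In edgeR's quasi-likelihood test with Benjamini-Hochberg adjustment over all host genes, 0 of the 12 passed an adjusted p of 0.05, as did 0 of 1377 hosts (0%). At an unadjusted p under 0.05 there was 1 of 12, Slc8a3, against 4.58% of all hosts tested (2.4% higher and 2.18% lower in A53T; Slc8a3 was higher), and DESeq2 also gave 0 adjusted calls and 1 unadjusted. Of the 5 circles 0 passed, as did 0 of 1214 circRNAs (0%), with 1 at an unadjusted p under 0.05, against 4.7% of all circRNAs tested (2.31% higher and 2.39% lower; the 1 was higher). DESeq2 gave 0 and 0. Of the 5 circles 3 were higher in A53T, as were 48.4% of all tested circRNAs, and the groups overlapped in each of the 5, while they did not in 11.3% of all.

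Of the 12 hosts 4 had a higher and 8 a lower level in A53T, where 50.6% of all tested hosts were higher. Their median log2 fold change was -0.14, beside 0.01 over all 1377. The groups did not overlap for 2 of the 12, Slc8a3 and Slc4a10, and for 10.5% of all tested hosts. Slc4a10 passed the filter through its A53T libraries alone, with no WT library at 5 reads. Its separation and its place among the 4 higher hosts were fixed by the filter, and it also enters the median. Nothing is read from either count. Levels of single hosts and circles below are in CPM, which is RPM with TMM scaling of the library totals, as mean ± SD with n = 3 each; log2 fold changes are A53T over WT.

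**Figure D1:**
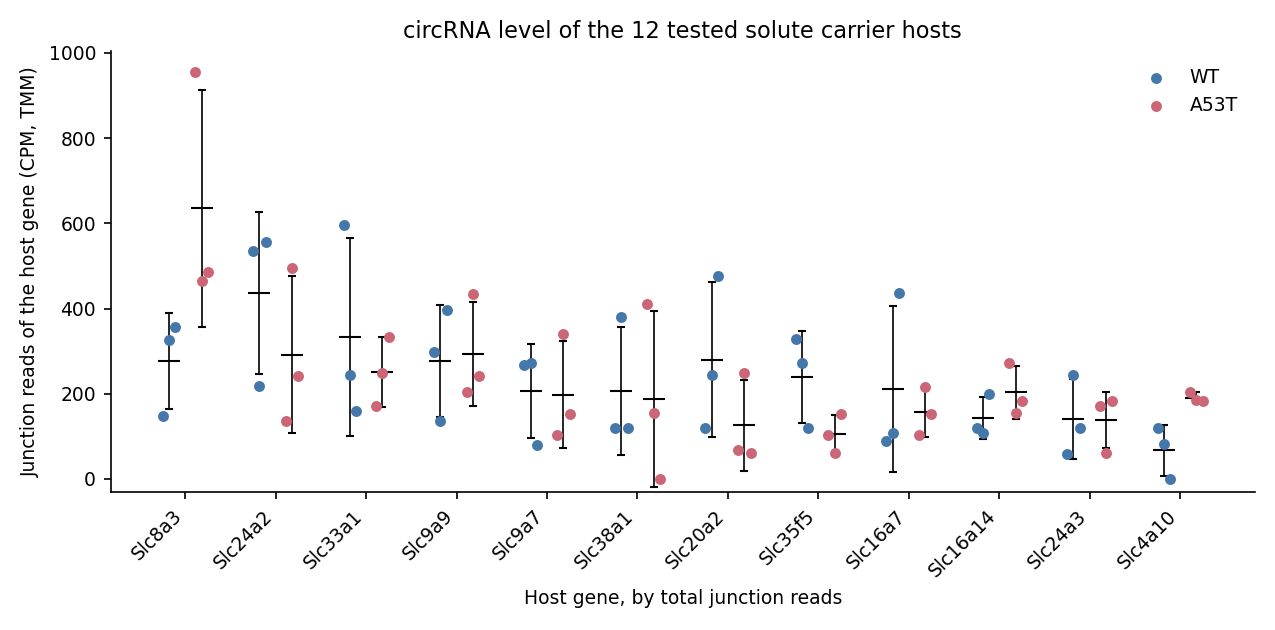
Junction reads summed per host gene (CPM after TMM scaling, linear axis) for the 12 tested solute carrier hosts, ordered by total reads; points are libraries, bars mean ± SD (n = 3). The 3 A53T libraries of Slc8a3 lie above its 3 WT libraries. Those of Slc4a10 also do, which the filter on reads fixed, and the groups of the other 10 hosts overlap.

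Ion and acid-base carriers were the largest group, with 19 hosts, 63 circles and 427 reads (44.3% of the 963). By family number this includes Slc4a1ap, which is not a carrier, with 6 circles and 17 reads. Together the 19 hosts had 2315 ± 298 RPM in WT and 2222 ± 368 in A53T. The 7 tested hosts, 3 higher and 4 lower in A53T, had a median of -0.05 on the log2 scale, and 0 passed. The 3 include Slc4a10, whose direction the filter on reads fixed.

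Slc8a3 encodes the sodium-calcium exchanger NCX3, which extrudes calcium from neurons, and was the most read of the 75 hosts. WT replicates 1 to 3 held 5, 12 and 9 of its reads, A53T replicates 1 to 3 held 28, 15 and 16. Each A53T library was above each WT library, with A53T replicate 1 highest. The mean was 277 ± 112 CPM for WT and 635 ± 278 CPM for A53T. That is 1.19 as a log2 fold change, with a standard error of 0.49 and a 95% interval from 0.21 to 2.17 (edgeR quasi-likelihood, unadjusted p = 0.0181, Benjamini-Hochberg adjusted p = 0.870). In the same edgeR fit it was 0.77 without A53T replicate 1 (unadjusted p = 0.227) and 0.87 without WT replicate 1 (unadjusted p = 0.0972).

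Nearly all of it, 79 of 85 reads (92.9%), came from 1 circle, exon 2 of 8 alone, on the minus strand of chromosome 12 from 81361034 to 81362878. This exon is 1845 nt long, holds the start codon and has a length that is a multiple of 3. The circle had 5, 12 and 9 reads in WT and 27, 15 and 11 in A53T, so that here the groups overlapped: A53T replicate 3 lay at 339.7 CPM, below WT replicate 3 at 348.0 CPM. It reached 1.04 as a log2 fold change, with a standard error of 0.50 (edgeR quasi-likelihood, unadjusted p = 0.0458, adjusted p = 0.991), and 0.57 without A53T replicate 1. The host sum differs from the circle by the exon 5 to 6 circle with 3 reads, all in A53T replicate 3, and by a sense overlapping one with 3 reads, in A53T replicates 1 and 3.

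The same exon is circular in the paralogue Slc8a1 (NCX1), one of the hosts left out by the rule. Its circle is exon 2 of 11, 1830 nt long, with the start codon, and had 49, 33 and 46 reads in WT and 44, 57 and 63 in A53T, 292 in all. Over the last 40 bases of exon 2, coding in both, 30 bases are identical at the same place. These ends are shown because they form the upstream side of both junctions:
Slc8a3 exon 2, last 40 bases, chromosome 12: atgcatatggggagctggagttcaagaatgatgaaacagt
Slc8a1 exon 2, last 40 bases, chromosome 17: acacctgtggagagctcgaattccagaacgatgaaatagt
The third exchanger, Slc8a2 (NCX2), had no exon 2 circle listed; its 1 circle, exons 6 to 8 of 9, had 0 reads in WT and 0, 2 and 5 in A53T.

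Slc24a2 and Slc24a3 encode potassium-dependent sodium-calcium exchangers. Slc24a2 had 18, 8 and 14 reads in WT and 4, 16 and 8 in A53T, at 436 ± 190.0 and 292 ± 184 CPM. The groups overlapped, with a log2 fold change of -0.54 and a standard error of 0.56 (edgeR quasi-likelihood adjusted p = 0.989). It was -1.17 without A53T replicate 2 and -0.23 without A53T replicate 1. Its reads were spread over 6 circles. The exon 2 to 3 circle printed above had 6, 5 and 5 reads in WT and 2, 6 and 6 in A53T, at 169.9 ± 26.9 and 147 ± 68.8 CPM (log2 fold change -0.19, standard error 0.77; edgeR quasi-likelihood adjusted p = 0.999). Other circles differed by more reads: the exon 5 to 7 circle had 7 reads, all in WT replicate 1, and the exon 2 to 9 circle 3, all in WT replicate 3. The exon 4 to 9 circle went the other way, with 3 reads in WT and 6 in A53T, each in replicate 2. The exon 5 to 9 circle had 7 reads in WT and 6 in A53T. Slc24a3 had 2, 9 and 3 reads in WT and 5, 2 and 6 in A53T, 24 of its 27 from the exon 3 to 5 circle. Its log2 fold change of -0.05 was within the spread of both groups.

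Slc9a9 and Slc9a7 encode sodium-proton exchangers of endosomes and of the trans-Golgi network. Slc9a9 had 10, 5 and 10 reads in WT and 6, 14 and 8 in A53T, at 277 ± 132 and 294 ± 123 CPM. Its exon 2 to 4 circle had 5, 1 and 4 reads in WT and 2, 10 and 5 in A53T, at 109.8 ± 70.9 and 178 ± 124 CPM. The log2 fold change of that circle was 0.72 (standard error 0.88; edgeR quasi-likelihood adjusted p = 0.993), against 0.12 for the host, and the groups overlapped in both. The value of the circle was 0.26 without WT replicate 2 and 1.11 without A53T replicate 1. Slc9a7 had 9, 10 and 2 reads in WT and 3, 11 and 5 in A53T over 9 circles, 11 of them on its most read circle. Exon 2 opened 3 of its 5 exonic circles and exon 4 the other 2; exon 12 closed 2 and exon 5 closed 2. Exonic circles that open at exon 2 had 14 reads in WT and 2 in A53T, those that open at exon 4 had 5 and 10. This split was seen after the values and not tested. It leaves out a sense overlapping circle that opens at the same exon 2 start, with 2 reads in A53T replicate 2 and 0 in WT. The Slc9a9 circle also opens at exon 2, and of the first 20 bases of that exon 13 are identical in Slc9a7.

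Slc20a2 encodes a sodium-phosphate cotransporter, PiT2, whose human gene is mutated in familial basal ganglia calcification. It had 4, 9 and 12 reads in WT and 2, 8 and 2 in A53T, at 280.1 ± 181 and 126 ± 106 CPM. A53T replicate 2 lay inside the WT range and the other A53T libraries below it. On the log2 scale A53T was at -1.09 relative to WT, with a standard error of 0.80 and a 95% interval from -2.70 to 0.51 (edgeR quasi-likelihood adjusted p = 0.989). Its 2 circles share their first exon and the start codon but differed in their reads. The exon 2 to 5 circle had 3, 7 and 11 reads in WT and 2, 2 and 0 in A53T, while the exon 2 to 4 circle had 1, 2 and 1 in WT and 0, 6 and 2 in A53T. Neither passed the filter, and with no filter the first had a log2 fold change of -2.29 (edgeR quasi-likelihood, unadjusted p = 0.0314, adjusted p = 0.469). In that setting 2 of 158 solute carrier circles had an unadjusted p under 0.05, beside 214 of all 18136 circRNAs. The circle was picked after its value was seen, and the difference between the 2 circles was not tested.

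Slc4a10 encodes a sodium-dependent bicarbonate transporter of neurons and choroid plexus. It had 4, 3 and 0 reads in WT and 6, 6 and 6 in A53T, at 66.9 ± 60.9 and 191 ± 12.3 CPM, with no overlap. The filter on reads fixed that separation and favours a high ratio, so nothing is read from either. The log2 fold change was 1.38, with a standard error of 1.09 and a 95% interval from -0.79 to 3.55 (edgeR quasi-likelihood adjusted p = 0.989). Without WT replicate 3 it was 0.88. Slc4a10 had its 25 reads on 9 exonic circles with 2 to 4 reads each, of which 7 had more reads in A53T and 2 more in WT. The filter on the host favours this split too, and circles of a host are not replicates, so nothing is read from it. Slc4a7, a relative of Slc4a10, had 2, 6 and 3 reads in WT and 0 in each A53T library, over 4 circles. Both genes gave a circle of exons 2 to 6 with the same length, 718 nt, of which 495 bases (68.9%) are identical at the same place. These junctions are shown because the same exons are joined in both, with 3 reads for the first, all in A53T replicate 1, and 3 for the second, all in WT replicate 3:
Slc4a10 exons 2 to 6, chr2:61988550-62064913, plus strand: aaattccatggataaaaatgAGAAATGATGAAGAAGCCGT
Slc4a7 exons 2 to 6, chr14:7729850-7740561, minus strand: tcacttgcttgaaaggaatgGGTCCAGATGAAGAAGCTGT

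**Figure D2:**
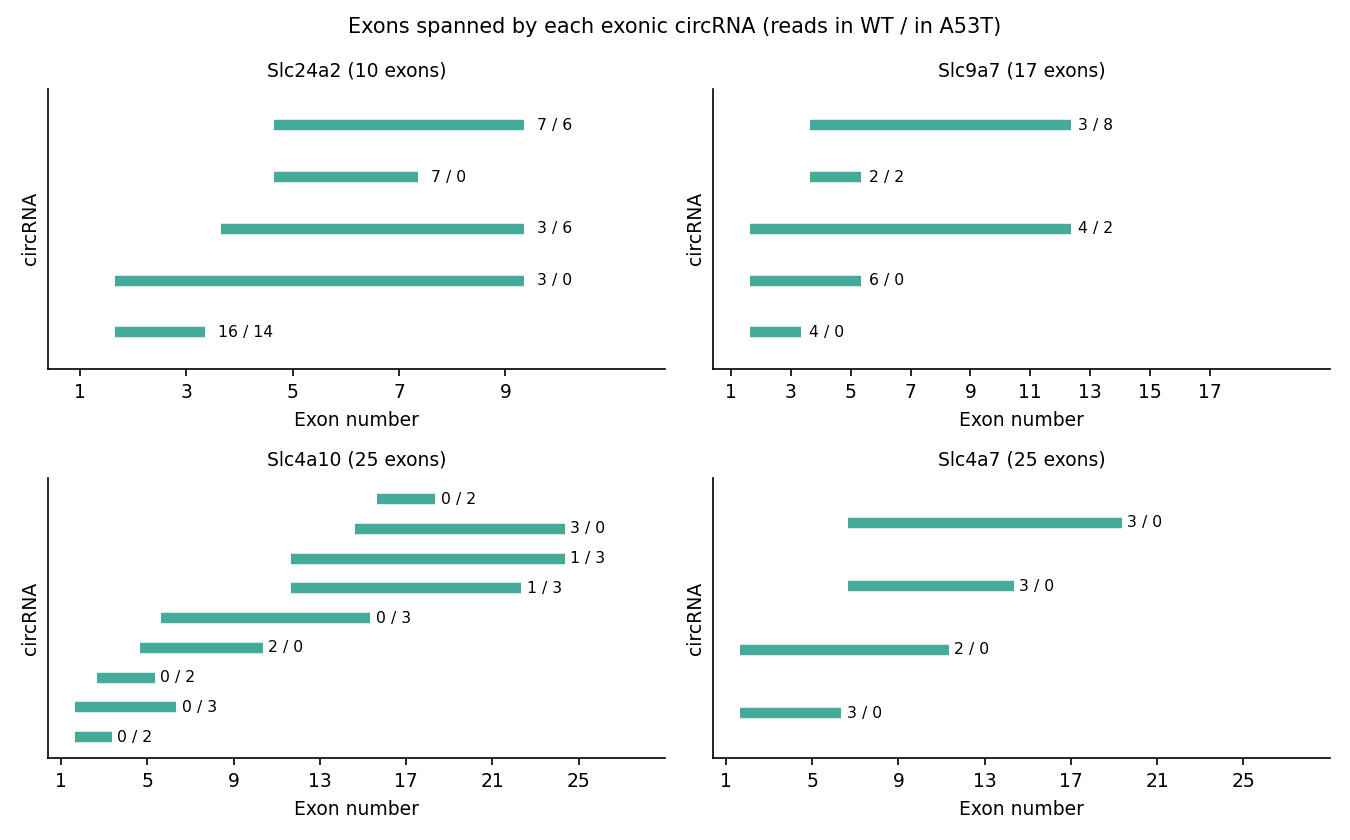
Exonic circRNAs of Slc24a2, Slc9a7, Slc4a10 and Slc4a7, each bar running from its first to its last exon (exon number on the horizontal axis, 1 row per circRNA); figures beside a bar are junction reads summed over the 3 WT and the 3 A53T libraries. The Slc24a2 exon 2 to 3 circle has 16 and 14 reads, and each of the 4 Slc4a7 circles has 0 in A53T.

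Chloride cotransporters had few reads. Slc12a2 (NKCC1), which loads chloride into cells, had 5, 3 and 3 reads in WT and 0, 0 and 3 in A53T on 4 circles that all open at exon 3. WT was 3.63 times A53T, with 95% counting limits of 0.96 and 20.3. Slc12a5 had 2 reads, both antisense and in WT replicate 1. Neither passed the filter. Slc4a1ap had 4, 2 and 1 reads in WT and 7, 3 and 0 in A53T.

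Carriers of nucleotide sugars and of the Golgi and endoplasmic reticulum came next, with 11 hosts, 21 circles and 153 reads, at 836 ± 284 RPM in WT and 736 ± 263 in A53T. Slc33a1 carries acetyl-CoA into the endoplasmic reticulum. It had 20, 9 and 4 reads in WT and 5, 8 and 11 in A53T, at 333 ± 231 and 251 ± 81.4 CPM, a log2 fold change of -0.42 that became 0.28 without WT replicate 1. Its 2 circles both open at exon 2 and were listed on different transcripts. The exon 2 to 6 circle had 9, 5 and 2 reads in WT and 5, 6 and 9 in A53T (log2 fold change 0.36, standard error 0.74; edgeR quasi-likelihood adjusted p = 0.994), whereas the exon 2 to 5 circle had 11, 4 and 2 in WT and 0, 2 and 2 in A53T.

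Slc35f5, a member of the nucleotide sugar transporter family, had 11, 10 and 3 reads in WT and 3, 2 and 5 in A53T, at 239 ± 108 and 105.3 ± 44.9 CPM. WT replicate 3 lay inside the A53T range. Its log2 fold change of -1.18 had a standard error of 0.84 and a 95% interval from -2.85 to 0.50 (edgeR quasi-likelihood, unadjusted p = 0.165, adjusted p = 0.989) and was the lowest of the 12 hosts. Of its 34 reads 24 came from the exon 5 to 10 circle, with 6, 8 and 3 in WT and 3, 0 and 4 in A53T, and 8 from the exon 5 to 8 circle, with 5, 0 and 0 in WT and 0, 2 and 1 in A53T. Slc35f3 had 2, 2 and 1 reads in WT and 3, 8 and 0 in A53T.

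Carriers of sugars, monocarboxylates, nucleosides and vitamins had 9 hosts, 21 circles and 122 reads, at 575 ± 223 RPM in WT and 736 ± 130 in A53T, with overlapping groups. Slc16a14, an orphan of the monocarboxylate transporter family, had 4, 4 and 5 reads in WT and 8, 5 and 6 in A53T, at 142 ± 49.2 and 203 ± 62.0 CPM (log2 fold change 0.53, standard error 0.84; edgeR quasi-likelihood adjusted p = 0.991). Slc16a7 (MCT2), which carries lactate and pyruvate into neurons, had 3, 4 and 11 reads in WT and 3, 7 and 5 in A53T, a log2 fold change of -0.35. WT replicate 3 held 11 of its 18 WT reads, and the other WT libraries lay within or below the A53T range. Slc45a4, of the sugar transporter family, had 2, 2 and 1 reads in WT and 6, 2 and 6 in A53T. Slc2a13, the proton-coupled inositol transporter, had 4, 2 and 4 in WT and 1, 4 and 1 in A53T. Slc23a2, the vitamin C transporter of neurons, had 0 reads in WT and 3, 1 and 5 in A53T. None of these last 3 hosts passed the filter.

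**Figure D3:**
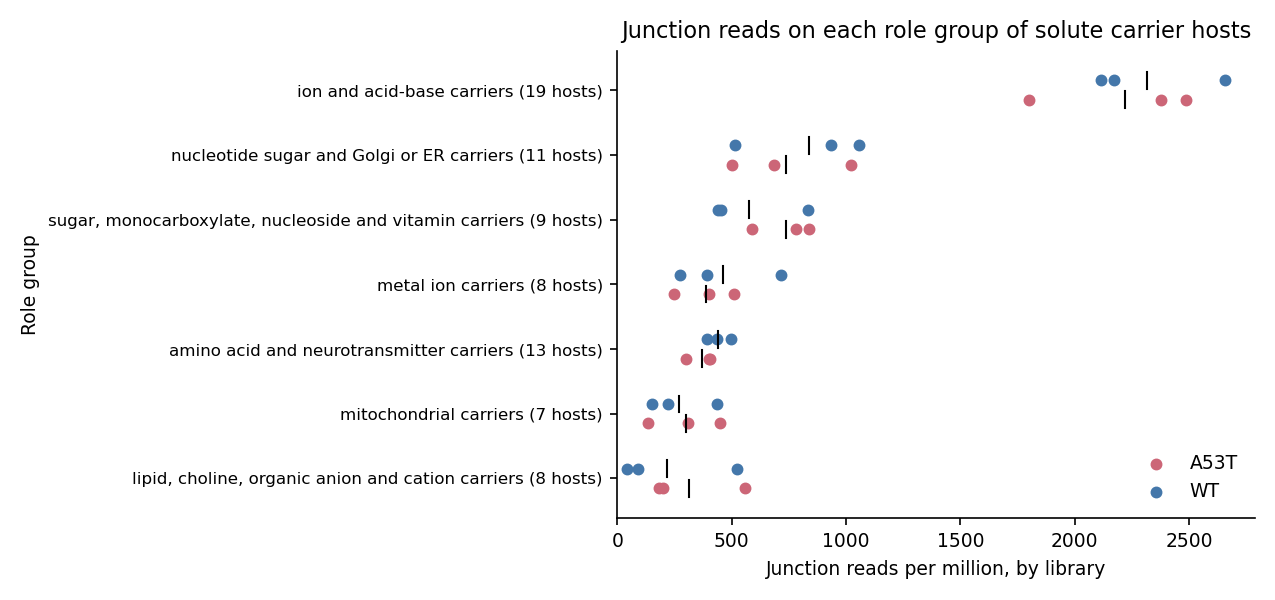
Junction reads (RPM) on each role group of solute carrier hosts, 1 point per library and a short line at each group mean (3 WT, 3 A53T libraries). Ion and acid-base carriers lie highest, with means of 2315 in WT and 2222 in A53T, and WT and A53T overlap in every role group.

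Slc1a2 and Slc1a3 belong by family number to the transmitter and amino acid carriers, but were left out by the rule. Without them this group had 13 hosts, 15 circles and 77 reads, with 13, 18 and 11 for WT replicates 1 to 3 and 12, 13 and 10 for A53T replicates 1 to 3. Mitochondrial carriers and carriers of lipids, choline and organic ions had fewer reads, 53 each. Slc38a1, which takes up glutamine into neurons, gave 38 of the 77. It had 4, 14 and 3 reads in WT and 12, 5 and 0 in A53T, and the A53T libraries held both its highest level, 409.7 CPM, and its lowest, 0. Its exon 2 to 4 circle, with the start codon, had 2, 14 and 3 reads in WT and 9, 5 and 0 in A53T (log2 fold change -0.35, standard error 0.86; edgeR quasi-likelihood adjusted p = 0.999), and 0.25 without A53T replicate 3. Slc17a8 (VGLUT3), a vesicular glutamate transporter, had 2 reads in A53T replicate 2. No circle was listed for the dopamine transporter Slc6a3, the vesicular monoamine transporter Slc18a2, the vesicular glutamate transporters Slc17a6 and Slc17a7 or the vesicular GABA transporter Slc32a1. The table lists a circle only with at least 2 reads in some library, so rarer circles of these genes were not detectable at this depth. Slc7a11, the cystine-glutamate exchanger, had 2, 0 and 3 reads in WT and 0, 0 and 1 in A53T. WT was 4.95 times A53T, with 95% counting limits of 0.55 and 234.

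Metal ion carriers had 8 hosts, 16 circles and 78 reads, at 461 ± 227 RPM in WT and 387 ± 132 in A53T. Slc30a7, a zinc transporter of the Golgi, had 3, 3 and 9 reads in WT and 2, 1 and 6 in A53T on 3 circles that all end at exon 8. Slc30a9, of the zinc transporter family, had 5, 1 and 2 in WT and 0, 2 and 4 in A53T. Slc41a2, a magnesium transporter, had 3, 6 and 0 in WT and 3, 0 and 5 in A53T. In each of these 3 the groups overlapped. Mitochondrial carriers had 7 hosts and 53 reads, at 269 ± 149 and 298 ± 158 RPM. Slc25a20, the carnitine-acylcarnitine carrier that brings fatty acids into mitochondria, gave 14 of them on an exon 6 to 7 circle, 0, 2 and 6 in WT and 0, 3 and 3 in A53T. Slc25a12, the aspartate-glutamate carrier of brain mitochondria, had 0, 4 and 2 in WT and 0, 0 and 6 in A53T.

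Carriers of lipids, choline and organic ions had 8 hosts and 53 reads, at 217 ± 265 RPM in WT and 313 ± 213 in A53T. By family number the group also takes in the peptide transporter Slc15a4, with 13 reads. WT replicate 2 and A53T replicate 2 stood apart with 19 and 18 reads, where the other libraries had 1 to 6. Slc10a7 had 0, 3 and 0 reads in WT and 0, 10 and 1 in A53T, and Slc15a4, a lysosomal histidine and peptide transporter, 2, 6 and 0 in WT and 1, 2 and 2 in A53T. Of the 11 reads of Slc10a7 in A53T, 10 were in replicate 2, so no ratio is drawn from them.

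Some hosts were read in 1 group only. Among the 41 solute carrier hosts with at least 6 reads, 5 were, beside 5.89% of all 3242 such hosts. They were named after their values were seen. Slc4a7, a sodium bicarbonate cotransporter, and Slc26a8, an anion transporter, were at 0 in A53T with 11 and 7 reads in WT. With 3 reads over the group put in place of the 0, they were 3.63-fold and 2.31-fold higher in WT. Slc23a2, Slc8a2 and Slc31a1, the copper importer, were at 0 in WT with 9, 7 and 6 reads in A53T. In the same way they were 3.03-fold, 2.36-fold and 2.02-fold higher in A53T. None of the 5 passed the filter. These ratios are not lower bounds, as they carry neither the counting error of the higher group nor the spread between samples.

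The hosts most like these were set beside them. Of the 5 hosts left out by the rule 4 were tested, 3 higher and 1 lower in A53T, with a median of 0.20 on the log2 scale. Of the primary-active transporters, the ATP-driven pumps and ABC transporters, 13 hosts were tested, with 3 higher and 10 lower and a median of -0.09. In edgeR's quasi-likelihood test with Benjamini-Hochberg adjustment 0 of either set passed, and 1 pump or ABC host had an unadjusted p under 0.05. Differences between these sets and the 12 solute carrier hosts were not tested.

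**Figure D4:**
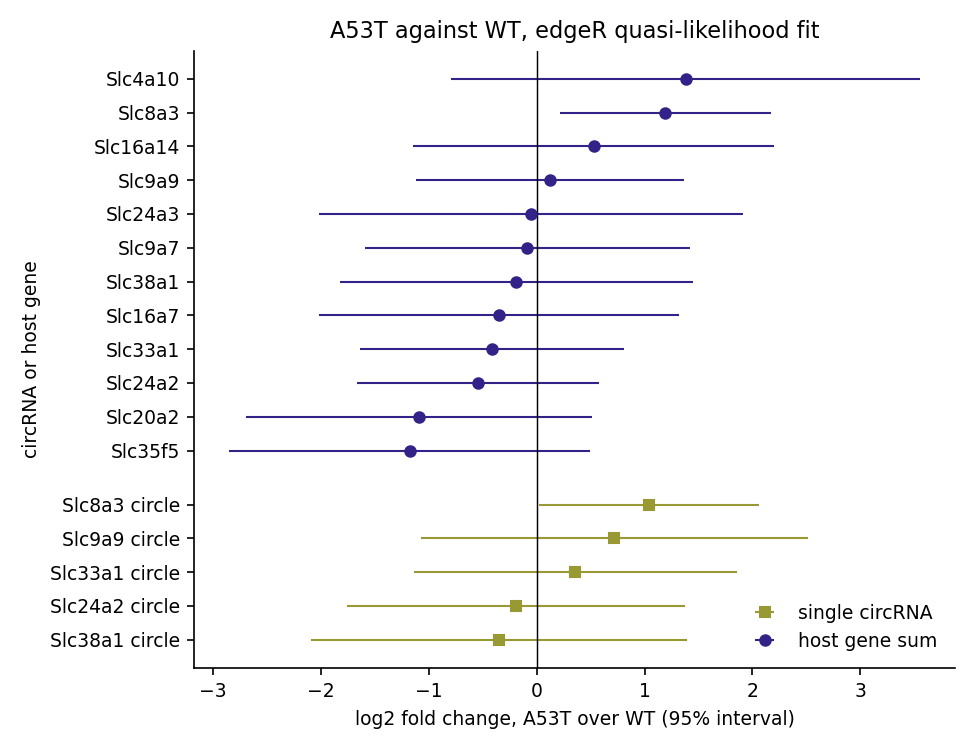
Log2 fold change of A53T over WT with its 95% interval from the edgeR quasi-likelihood fit, for the 12 tested host sums (circles) and the 5 tested single circRNAs (squares); the vertical line marks no difference. The intervals of Slc8a3, as host and as circle, lie above 0 before adjustment for multiple tests and with all 6 libraries, and those of the other 15 span 0.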

How the data were processed

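The deposited table gives counts of back-splice junction reads per circRNA and library, and the authors' log2 CPM by edgeR, per the file headers; the log2 values were not used. It also holds a predicted length in nt (its other deposited number). The tools cutadapt 1.9.3, STAR, edgeR 3.16.5 and the build mm39 are listed in the submitters' processing notes. Not given in the sources used here were the circRNA caller, the annotation and the strand setting. Counts were summed per host gene; 338 circRNAs without a gene name stayed out of these sums (0.690 to 0.828% of reads). edgeR 4.0.16 (TMM, robust quasi-likelihood, two-sided, Benjamini-Hochberg, threshold 0.05) in R 4.3.3 compared A53T with WT over the whole table, for rows with at least 5 reads in 3 libraries; DESeq2 1.42.0 was an alternative. Standard errors come from the F statistic. The fit was tested on simulated data. Replicates within a group differed by more than counting noise. The labels give no pairing by replicate number, and correlations of same-numbered libraries showed no sign of it, which does not exclude it at these counts. Exon runs were matched by span and length to GENCODE M21 transcripts, which belong to GRCm38, and coordinates were taken from the table alone. Roles follow the family number, including for Slc4a1ap. Named were all hosts and circles that passed the filter, the 10 most read others, the hosts of transmitter carriers, and full statistics for the 3 smallest p in each direction; hosts named beyond this rule were chosen after their values were seen, and some genes of the rule are not reported here. Members and lists were chosen with earlier results of these data known. Intervals for ratios and shares cover counting error only. Figures were drawn with matplotlib 3.10.9.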

Additional observations from a re-analysis of the deposited data

How the results depend on the processing

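The tested hosts had 0 to 28 reads per library, which limits every value above. The number of solute carrier circles and hosts past the threshold stayed at 0 under every alternative: DESeq2 size factors, library totals only, no filter, at least 10 reads, the DESeq2 test, the replicate block and leaving out each library. Over all circRNAs 1 passed, against 0, in each of these settings: at least 10 reads, without A53T replicate 2, and without A53T replicate 3. None was a solute carrier circle, and whether the same circRNA passed each time is not reported here. At an unadjusted p under 0.05 there were 57 circRNAs and 63 hosts of the whole table, against 214 and 129 with no filter and 34 and 46 with at least 10 reads. Of 167 recomputed log2 fold changes of the 12 hosts and 5 circles, 155 kept their direction and 12 turned. Of the 12 that turned, 11 did so when 1 library was left out. In 7 hosts and 3 circles none turned. These include Slc4a10, Slc35f5, Slc20a2, Slc16a7 and the Slc9a9 circle, with only 8 recomputed values each. The filter dropped them in the other settings, Slc4a10 whenever an A53T library was left out. That these never turned was therefore partly fixed by the filter. With the replicate block, Slc24a3 went from -0.05 to 0.024 and no adjusted call changed; correlations of same-numbered libraries were between -0.03 and 0.02. Leaving out 1 library gave -0.44 to 0.26 for Slc24a3, -0.74 to 0.28 for Slc33a1, -0.50 to 0.35 for Slc38a1, -0.74 to 0.20 for Slc9a7 and -0.29 to 0.42 for Slc9a9. It gave -0.78 to 0.25 for the Slc38a1 circle and -0.38 to 0.16 for the Slc24a2 circle. The unadjusted edgeR p of the Slc8a3 circle, 0.0458, was 0.0756 with the replicate block, 0.0536 with library totals only, 0.0549 in DESeq2, and 0.0516, 0.168 and 0.362 without WT replicate 2, WT replicate 1 and A53T replicate 1. Slc8a3 stayed between 0.77 and 1.36 as host and 0.57 and 1.32 as circle, with edgeR or DESeq2 adjusted p of the host from 0.630 to 0.992 over all alternatives. Hosts that fell below the filter without a library got no value there. The difference in the share of reads was -0.0053 percentage points, 0.0033 without Cdr1os in the total, and -0.028 to 0.021 without 1 library, all within the spread between replicates. The cause of these turns was not tested.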
